A study of Homo sapiens with 346 samples.

Results

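The genes described here had a higher mean level in methanol-fixed than in live single cells of both cell lines studied. They were chosen by their values: a gene had to have a mean of at least 20 TPM (the standard length-corrected share of a cell's transcripts) over the fixed cells of each line, and a fixed mean at least 1.6 times the live mean in each line. Genes whose symbols start as those of ribosomal proteins, respiratory chain subunits, proteasome subunits or ribosomal RNA were left out. Of 26894 genes listed in both lines, 2837 reached the level and 2560 of these had no excluded symbol. The ratio was met by 18 of the 2560, or 0.703%, and these 18 are the members. Another 2 genes, RNA28S5 and RPL36A-HNRNPH2, met both limits and were left out by symbol.

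HCT-116, a human colorectal carcinoma line, and cells labelled HepG2, a human liver cancer line, were sequenced as single cells with Smart-seq2, which reads full-length cDNA made from polyadenylated RNA. Live cells of each line were processed directly, and fixed cells of the same line had been kept in 80% methanol for 1 week. The columns used hold HCT-116 cells (91 live, 92 fixed) and HepG2 cells (67 live, 82 fixed). HepG2 was processed in more than 1 experiment, which the labels leave unmarked. Each line and treatment is therefore 1 sample, cells are not replicates, and fixed and live cells were compared without a test. SDs are over cells. The fixed libraries were made after the live ones, and library batch and fixation cannot be told apart.

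The cells labelled HepG2 did not carry the label's markers. Of 17 hepatocyte genes, 9 were listed for this line, and 0 exceeded 1 TPM in the majority of live or of fixed cells. The summed hepatocyte level ran from 0 to 35.9 TPM over live cells and from 0 to 89.7 TPM over fixed cells. Of 10 luminal breast genes, 9 exceeded 1 TPM in the majority of cells of both treatments. The name HepG2 is kept below as the label.

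Median depth was lower in fixed cells. It was 2.5 M (mega) reads per cell in live and 1.8 M in fixed HCT-116 cells, and 2.4 M and 2 M in HepG2. Fixed cells had fewer genes detected, with medians of 10359 against 12031 in HCT-116 and 12305.5 against 13889 in HepG2. Ribosomal RNA took 25.6% ± 4.82 (SD) of the TPM scale in live HCT-116 cells and 7.78% ± 2.13 after fixation. For HepG2 it took 5.59% ± 1.63 and 2.35% ± 0.855. These shares are sums over several ribosomal RNA entries, which did not all fall. RNA28S5 rose from a mean of 255.1 to 1188 TPM in HCT-116 and from 141.9 to 697 TPM in HepG2. TPM values of a cell share a common scale, so a change in 1 share moves the others. Ratios with ribosomal RNA left out are given below, and its part in the ratios was not tested. The listed genes of a cell summed to medians of 993455 (live) and 991193 TPM (fixed) in HCT-116, and of 895651 and 962053 TPM in HepG2, where the sums thus differed between treatments. Over the 2560 genes, the fixed over live ratio had a median of 1.24 for HCT-116 and 1.23 for HepG2, and 75.4% of them had a ratio above 1 in both lines.

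The signal recognition particle binds the signal peptide of a nascent secretory or membrane protein, pauses translation and brings the ribosome to the endoplasmic reticulum. Its scaffold is 7SL RNA, a short noncoding RNA made by RNA polymerase III from the genes RN7SL1 and RN7SL2, from which Alu repeats derive. Small nucleolar RNA host genes carry small nucleolar RNAs in their introns, and the spliced exons are left as a separate, often unstable transcript.

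The 18 members comprised 14 protein-coding genes and 4 noncoding ones. By RefSeq transcript type, 14 of 2460 coding genes at this level were members (0.569%), against 4 of 77 genes of any other matched type (5.19%). A further 23 genes at this level had no matched type, and 0 of them were members. The level is itself set on the fixed mean. The noncoding members were RN7SL1 and RN7SL2, both typed as scRNA (small cytoplasmic RNA), and the long noncoding RNAs SNHG25 and LOC100506675. These were 2 of 2 scRNA genes and 2 of 35 long noncoding RNAs. Of 19 small nucleolar RNAs and 5 microRNA genes, 0 were members. With 0.703% of the 2560 genes as members, these types hold too few genes to show a difference. RN7SL1 and RN7SL2 are near copies with an uncertain split of reads, so the noncoding share counts near-identical RNAs separately. In the order of the geometric mean of both ratios, RN7SL2, LOC100506675 and RN7SL1 led the list.

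RN7SL1 and RN7SL2, both on chromosome 14 and each a single exon, are near copies, which decides how reads can be shared between them. In GENCODE 44 the transcripts hold 299 and 300 bases and are identical at 295 of 300 aligned positions (98.3%). GC content is 62.9% and 62.7%.

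LOC100506675, now named LINC03031, lies at chr11:32035979-32041318 on the minus strand of GRCh38. Its 822-base transcript has 3 exons in GENCODE 44 and holds a run of 38 A at positions 476 to 513, inside the transcript rather than at its end. The stretch from position 416 to 573 is shown for that run, in capitals.
LOC100506675: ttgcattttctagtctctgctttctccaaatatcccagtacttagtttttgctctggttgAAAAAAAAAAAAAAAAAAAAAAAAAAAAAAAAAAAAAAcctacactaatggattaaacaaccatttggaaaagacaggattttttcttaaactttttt
Among the 2514 genes of the same level with a reference transcript, 2 had a run of at least 38 A, this gene included, and the longest run was 48. A run of at least 10 A was present in 15.95% of the 2514. The presence of the run is a description of the transcript, and its part in the measured level was not tested.

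SNHG25 lies at chr17:64145970-64146309 on the plus strand, and its spliced transcript over these coordinates has 140 bases. It is shown as the member with the highest level and as one of the shortest.
SNHG25: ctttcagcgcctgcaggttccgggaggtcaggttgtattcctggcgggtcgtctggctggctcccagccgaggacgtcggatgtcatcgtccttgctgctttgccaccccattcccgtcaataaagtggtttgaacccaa

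**Figure D1:**
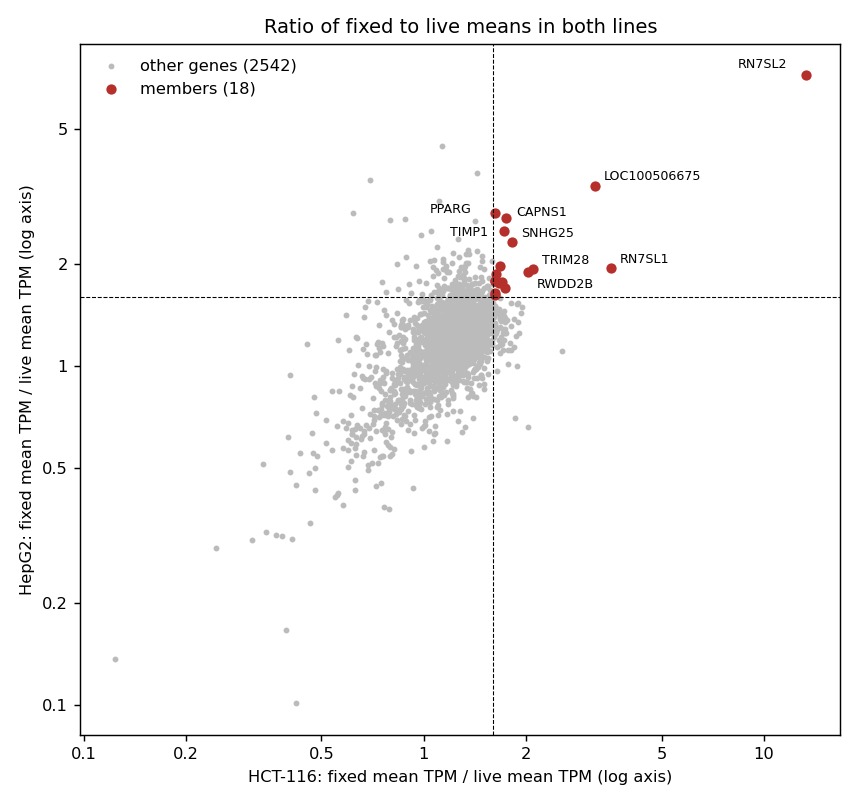
Ratio of the fixed to the live mean TPM in HCT-116 (x axis, log) and in HepG2 (y axis, log) for the 2560 genes with a fixed mean of at least 20 TPM in each line. Red points are the 18 members, grey points the other 2542 genes, and dashed lines mark the ratio of 1.6; RN7SL2 lies at 13.3 and 7.22, far from the other members.

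In all that follows, the mean of live cells stands before that of fixed cells, and the ratio in HCT-116 before that in HepG2. RN7SL2 had the largest ratio in both lines. Over live HCT-116 cells its level ran from 0 to 27.6 TPM with a median of 0, and over fixed ones from 0 to 250 TPM with a median of 42.9. It was detected in 38 of 91 live and 85 of 92 fixed HCT-116 cells. A majority of the fixed cells, 65 of 92, exceeded the highest live cell, although the groups overlapped at 0. The means were 4.50 ± 7.07 and 59.7 ± 49.1 TPM, a ratio of 13.3. In HepG2 the live cells ran from 0 to 84.2 TPM with a median of 3.17, and the fixed cells from 0 to 295 TPM with a median of 43.02. Here 15 of 82 fixed cells exceeded the highest live cell, and the means of 7.93 ± 12.99 and 57.3 ± 60.8 TPM gave a ratio of 7.22. From the mean of log2(TPM + 0.1), which weighs cells at 0 heavily, the ratios of RN7SL2 were 46.7 and 16.6, and the ratio of medians in HepG2 was 13.6.

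The depth behind these values was small. RN7SL2 held a mean of 0.963 reads (live) and 12.8 reads (fixed) in a cell of HCT-116, against 1.77 and 11.5 reads for HepG2, as recovered from the deposited CPM values. The median of live HCT-116 cells was 0 reads.

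RN7SL1 was the more abundant copy in all 4 groups. Its median was 20.2 TPM in live HCT-116 cells, within a range of 0 to 143.1, and 90.6 TPM in fixed ones, within 0 to 275. The live mean was 26.1 ± 26.97 TPM and the fixed mean 92.4 ± 55.3 TPM, a ratio of 3.54. In HepG2 the median was 55.4 TPM in live cells, within 0 to 211, and 108.4 TPM in fixed cells, within 0 to 459. The means of 59.4 ± 39.5 and 115.6 ± 74.02 TPM gave a ratio of 1.95. From the mean of log2(TPM + 0.1) the HCT-116 ratio was 6.03. The groups overlapped in both lines, and 16 fixed HCT-116 cells and 5 fixed HepG2 cells exceeded the highest live cell.

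Because the copies are near-identical, the split of reads between them is uncertain and their sum was taken too. In HCT-116 the summed level went from 30.6 ± 28.1 TPM (live) to 152.1 ± 72.6 TPM (fixed), and in HepG2 from 67.3 ± 43.7 to 172.8 ± 122.01 TPM. The ratio of the sums was 4.97 and 2.57. Both copies were chosen for meeting the limit in each line, and the ratio of their sum must lie between their own ratios. The sum therefore could not miss the limit, and its meeting it is no separate evidence. The part of the sum assigned to RN7SL2 went from 14.7% (live) to 39.2% (fixed) for HCT-116 and from 11.8% to 33.1% for HepG2. Within a group, the correlation of the 2 copies over cells (Pearson, log2(TPM + 1)) was between -0.09 and 0.24.

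Of the 6 protein subunits of the particle measured here, 0 reached a ratio of 1.6 in both lines. Only 0.703% of the 2560 genes did, so this count does not set the subunits apart. The median ratios of the 2560 genes were 1.24 and 1.23. SRP14, part of the Alu domain, had ratios of 1.42 in HCT-116 and 1.61 in HepG2, and its partner SRP9 had 1.21 and 1.24. SRP54, which binds the signal peptide, had 1.36 and 1.30, and SRP19 had 1.14 and 1.23. SRP68 had 0.949 and 1.16, and SRP72 had 1.35 and 1.19. Other RNA polymerase III transcripts went in different directions. At the level required of a member, BCYRN1 had ratios of 0.561 and 1.20, RNU6-2 had 1.45 and 1.19, and VTRNA1-3 had 1.09 and 1.49. Below that level, RN7SK had 1.72 and 3.06, RNY5 had 1.96 and 3.10, and VTRNA1-2 had 3.55 and 5.13. Ratios below 1 in both lines were found for RNY1 (0.715 and 0.665) and RNY4 (0.485 and 0.579), while RMRP had 0.283 and 2.29, RPPH1 had 0.246 and 1.12, RNU6-1 had 1.05 and 0.756, and RNY3 had 1.31 and 0.785.

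LOC100506675 had the most even ratio of the noncoding members. In HCT-116 it ran from 2.04 to 45.5 TPM with a median of 12.5 over live cells, and from 2.01 to 143.4 TPM with a median of 37.3 over fixed cells. The means of 14.1 ± 9.49 and 44.96 ± 32.4 TPM gave a ratio of 3.19. In HepG2 it ran from 0.900 to 44.9 TPM with a median of 8.99 over live cells, and from 0 to 134.8 TPM with a median of 36.8 over fixed cells, and the means of 11.8 ± 8.59 and 40.2 ± 25.7 TPM gave 3.41. The groups overlapped, while 33 fixed HCT-116 cells and 30 fixed HepG2 cells exceeded the highest live cell.

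Its level went down with the number of genes detected in a cell, in every group. Over cells, Pearson's r between log2(TPM + 1) and the number of genes detected for HCT-116 was -0.50 (live, n = 91) and -0.69 (fixed, n = 92), and for HepG2 -0.40 (live, n = 67) and -0.57 (fixed, n = 82). The labels name no library batch, and the HepG2 values may mix more than 1 experiment. The level and the number of genes also come from the same reads, so these correlations are descriptions. In cells paired on the number of genes detected (within 100 genes, 38 pairs in HCT-116 and 23 in HepG2), the ratios were 1.82 and 1.99 instead of 3.19 and 3.41. In cells paired on total reads the HepG2 ratio was 2.25. Fixed cells, as given above, had fewer genes detected.

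**Figure D2:**
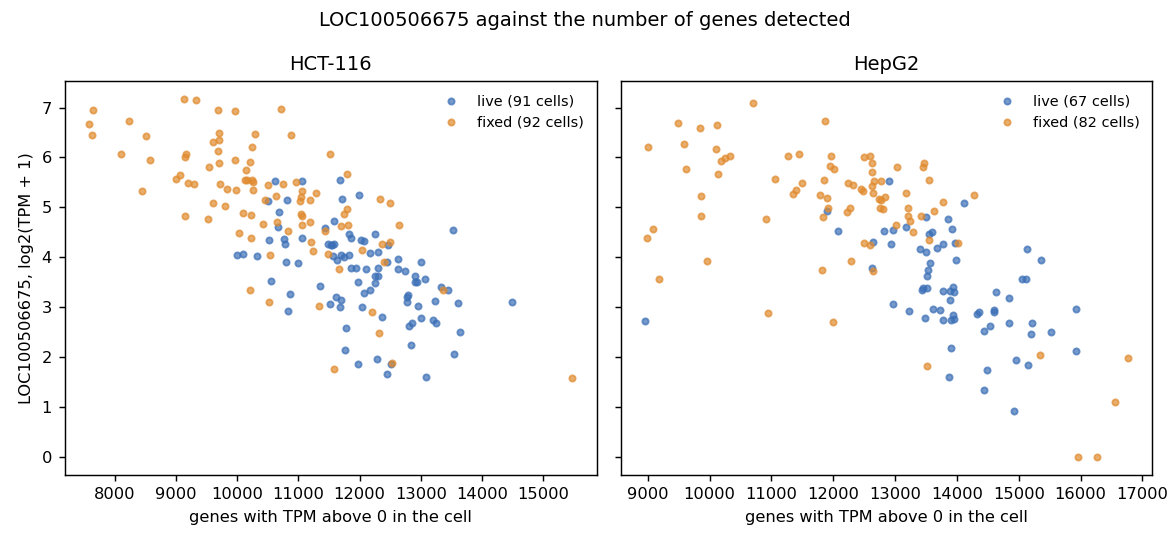
Level of LOC100506675 as log2(TPM + 1) against the number of genes with a TPM above 0, 1 point per cell, live cells in blue and fixed cells in orange, HCT-116 left and HepG2 right. The level falls as more genes are detected within each treatment, with r from -0.69 to -0.40.

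SNHG25, host of the small nucleolar RNA SNORD104, had the highest level of any member. Over live HCT-116 cells it ran from 72.6 to 1634 TPM with a median of 277, and over fixed cells from 78.4 to 1680 TPM with a median of 493, so that the ranges nearly coincided. The means were 332 ± 238 and 605 ± 403 TPM, a ratio of 1.82. In HepG2 the medians were 118.4 TPM in live cells, within 0 to 897, and 307 TPM in fixed cells, within 21.4 to 1699, and the means of 159.3 ± 148.2 and 370 ± 267 TPM gave 2.32. The high TPM comes with few reads, since the transcript is short: HCT-116 cells held a mean of 14.1 reads (live) and 20.7 reads (fixed), and HepG2 cells 7.67 and 16.3.

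The small nucleolar RNAs of this locus did not reach 1.6 in both lines, which 0.703% of the 2560 genes did. SNORD104 went from 254 to 324 TPM in HCT-116, a ratio of 1.28, and from 45.02 to 33.3 TPM in HepG2, a ratio of 0.740. SNORA50C, the other of these RNAs, had ratios of 1.49 and 1.59. Of the further host genes measured at this level, SNHG6 had 1.37 and 1.39, SNHG8 had 1.35 and 1.39, SNHG5 had 1.24 and 1.46, and SNHG9 had 0.836 and 1.998. Ratios of 0.831 and 1.17 were found for SNHG1.

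**Figure D3:**
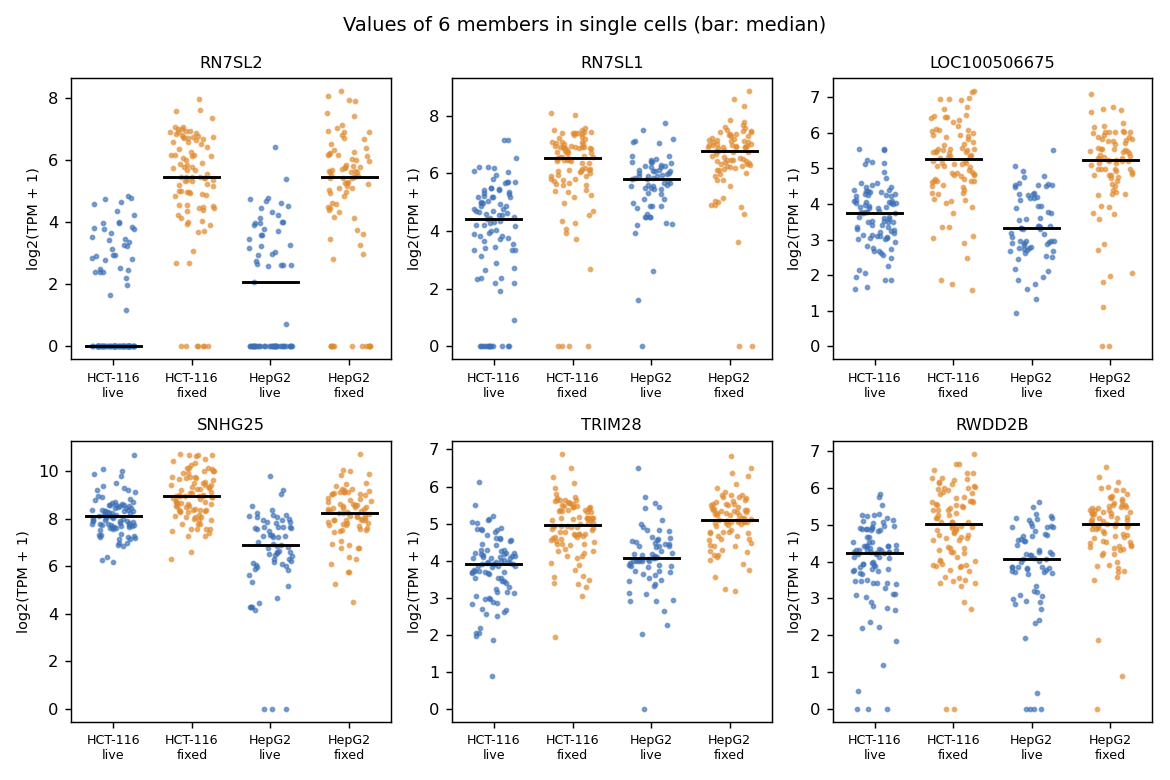
Level of 6 members as log2(TPM + 1) in single cells, live in blue and fixed in orange, for both lines; each point is a cell and the black bar is the group's median. The medians are higher in fixed cells in all panels and the groups overlap, with the median of RN7SL2 at 0 in live HCT-116 cells.

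Members that act in the nucleus were TRIM28, CDK2AP1, PPARG and PRKDC. TRIM28, the corepressor recruited by KRAB zinc finger proteins, had a live median of 14.2 TPM in HCT-116, within 0.850 to 68.3, and a fixed median of 30.4 TPM, within 2.83 to 116.8. The means of 15.7 ± 10.1 and 32.8 ± 17.4 TPM gave a ratio of 2.10. In HepG2 its medians were 15.8 and 33.3 TPM and the means of 18.7 ± 13.1 and 36.2 ± 17.7 TPM gave 1.94. The cells overlapped, but 89.1% of fixed HCT-116 cells and 92.7% of fixed HepG2 cells lay above the live median. TRIM27, the other gene of the TRIM family with a mean over treatments of at least 20 TPM in each line, had ratios of 0.824 and 0.835.

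PPARG, a ligand-activated nuclear receptor known for its role in fat cells and in the intestinal epithelium, varied widely between cells. In HCT-116 it ran from 0 to 122.8 TPM with a median of 7.98 over live cells and from 0 to 171.8 TPM with a median of 16.9 over fixed cells. It was detected in 79.1% of HCT-116 cells when live and 70.7% when fixed, so the higher mean of the fixed cells (26.7 ± 33.5 against 16.5 ± 22.1 TPM, ratio 1.62) came with fewer positive cells. In HepG2 the means were 14.7 ± 17.98 and 41.5 ± 47.9 TPM, a ratio of 2.83. The ratio in HepG2 was 7.13 in the 23 pairs of cells matched on genes detected. In these pairs the median ratio was 2.57 over members and 1.35 over the 2560 genes. The ratio in HCT-116 was 1.07 from the mean of log2(TPM + 0.1). Of 12 alternatives, 5 kept PPARG at or above 1.6 in both lines. Among its relatives, PPARA had ratios of 1.58 and 1.41, PPARD had 0.751 and 0.902, and the partner receptor RXRA had 0.713 and 0.795, at means below 5 TPM in all groups.

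PRKDC, the catalytic subunit of the DNA-dependent protein kinase used in end joining of DNA breaks, was the member with the lowest coefficient of variation (SD over mean) in HCT-116, 0.321 in live cells and 0.343 after fixation. Its live HCT-116 cells ran from 4.28 to 33.5 TPM with a median of 18.5, and its fixed ones from 8.52 to 61.2 TPM with a median of 31.6. The means of 18.8 ± 6.04 and 32.5 ± 11.2 TPM gave a ratio of 1.73, and 40 of 92 fixed cells exceeded the highest live cell. In HepG2 the means of 13.1 ± 4.98 and 22.3 ± 8.53 TPM gave 1.70. XRCC5 and XRCC6, which encode the Ku proteins that load this kinase onto DNA ends, had ratios of 1.51 and 1.36 (XRCC5) and of 1.45 and 1.25 (XRCC6).

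In PRKDC the ratio differed between its listed transcripts. NM_006904.6 went from a mean of 126.6 to 281 CPM (a share of the cell's reads, not corrected for length) in HCT-116 and from 105.1 to 215 CPM in HepG2, ratios of 2.22 and 2.05. The other transcript, NM_001081640.1, went from 65.4 to 80.8 CPM and from 54.6 to 45.9 CPM, ratios of 1.24 and 0.840. The tables estimate how reads are divided between overlapping transcripts, so the split is less certain than the gene total.

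CDK2AP1, which binds CDK2 and is part of the NuRD chromatin complex, had means of 24.6 ± 12.6 and 39.7 ± 20.7 TPM in HCT-116 and 26.1 ± 15.1 and 46.7 ± 34.7 TPM in HepG2. The ratios were 1.62 and 1.79, the latter 2.74 in the 23 pairs matched on genes detected, and CDK2AP2 had 1.15 and 1.23.

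Members of the secretory route, the cell surface and the extracellular space were TIMP1, GPRC5A, TSPAN6 and KDELR3. TIMP1, a secreted inhibitor of matrix metalloproteinases, had a median of 140 TPM in live HCT-116 cells, within 15.2 to 518, and of 225 TPM in fixed ones, within 75.9 to 772. The means of 146.3 ± 72.6 and 252 ± 131.4 TPM gave a ratio of 1.72. In HepG2 the medians were 47.1 and 130.6 TPM, and the means of 52.2 ± 40.7 and 130.96 ± 67.004 TPM gave 2.51. In HepG2 the interquartile ranges did not overlap, with an upper quartile of 64.9 TPM in live cells below the lower quartile of fixed cells, while the full ranges did.

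GPRC5A, an orphan receptor induced by retinoic acid, was close to TIMP1 in level in both lines. Its means were 144.8 ± 140.6 and 242 ± 277 TPM in HCT-116 and 66.5 ± 60.6 and 131.8 ± 114.8 TPM in HepG2, ratios of 1.67 and 1.98. The SD was close to or above the mean, and the ratio of the medians in HCT-116 was 1.35. GPRC5C, a family member of lower level, had ratios of 0.696 and 0.382.

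KDELR3, 1 of 3 receptors that return proteins of the endoplasmic reticulum from the Golgi, had means of 31.3 ± 21.8 and 51.2 ± 30.9 TPM in HCT-116 and 10.8 ± 11.9 and 20.2 ± 17.2 TPM in HepG2, ratios of 1.63 and 1.87. The fixed mean in HepG2 was only just above the required 20 TPM. KDELR1 had ratios of 1.38 and 1.75, and KDELR2 had 1.13 and 1.06. The tetraspanin TSPAN6 had means of 31.4 ± 18.3 and 50.8 ± 33.1 TPM in HCT-116 and 47.4 ± 25.2 and 84.7 ± 49.9 TPM in HepG2, ratios of 1.62 and 1.79. The ratio of its medians in HCT-116 was 1.44. TSPAN3, the other tetraspanin with a mean over treatments of at least 20 TPM in each line, had 1.39 and 0.960.

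Members with roles in the cytosol, on membranes and in organelles were CAPNS1, DYNC1I2, GLA, ECI2 and TMEM159. CAPNS1, the small regulatory subunit shared by the calpain proteases, differed most clearly in HepG2. There the live cells ran from 0 to 148.5 TPM with a median of 17.9 and the fixed cells from 5.69 to 158.04 TPM with a median of 60.1, and 95.1% of the fixed cells lay above the live median. The means of 22.6 ± 24.03 and 61.8 ± 29.6 TPM gave a ratio of 2.74, against 1.74 in HCT-116 from means of 15.1 ± 9.76 and 26.2 ± 20.3 TPM. CAPN1, a catalytic partner, went the other way, with ratios of 0.749 and 0.747.

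DYNC1I2, an intermediate chain of cytoplasmic dynein, had means of 12.03 ± 6.604 and 20.4 ± 11.5 TPM in HCT-116 and 24.6 ± 10.9 and 43.7 ± 15.99 TPM in HepG2, ratios of 1.69 and 1.77. In the same motor, the heavy chain DYNC1H1 had 1.58 and 1.51, DYNC1LI1 had 1.29 and 1.28, and the light chain DYNLRB1 had 1.54 and 1.72.

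GLA, the lysosomal alpha-galactosidase, met the ratio in HCT-116 through a single cell. Its fixed HCT-116 cells ran from 0 to 949 TPM with a median of 32.6, and the second highest stood at 90.4 TPM. The live cells ran from 0 to 91.3 TPM with a median of 24.5. The means of 26.8 ± 18.9 and 43.5 ± 98.7 TPM gave 1.62, and without the highest fixed cell the ratio was 1.25. It was 1.02 from the mean of log2(TPM + 1), 0.842 with a pseudocount of 0.1, and 2.53 in the 38 pairs matched on genes detected. In HepG2 the means of 120 ± 123.9 and 197 ± 153.1 TPM gave 1.64. The HepG2 ratio was 1.55 without the highest fixed cell and 2.46 in the 23 pairs matched on genes detected. Among other lysosomal hydrolases, GLB1 had ratios of 1.53 and 1.27, and GAA had 0.362 and 0.275.

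ECI2, an isomerase of unsaturated fatty acid oxidation, had means of 42.3 ± 21.5 and 68.3 ± 34.7 TPM in HCT-116 and 13.7 ± 11.6 and 22.3 ± 17.5 TPM in HepG2, ratios of 1.62 and 1.63. ECI1, with a related activity, had 0.728 and 1.16. TMEM159 is now named LDAF1 and known as a lipid droplet assembly factor. Its means were 13.1 ± 10.7 and 21.7 ± 15.5 TPM in HCT-116 and 25.3 ± 18.2 and 44.4 ± 28.3 TPM in HepG2. The ratios were 1.66 and 1.76, the latter 2.82 in the 23 pairs matched on genes detected. RWDD2B, an RWD domain protein, had medians of 17.97 and 31.4 TPM in HCT-116 and 15.8 and 31.6 TPM in HepG2, and its means of 18.5 ± 11.5 and 37.4 ± 25.1 TPM in HCT-116 and 17.6 ± 11.4 and 33.4 ± 17.1 TPM in HepG2 gave ratios of 2.02 and 1.90.

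By the roles given above, the members had varied functions. Of 39 gene families and functional groups set up from symbols, 4 held a member and 13 of the 18 members belonged to none. These groups cover only part of the genes. The share of all genes in none of them was not computed, so the count says nothing particular about the members. Counted over the 2521 genes with a mean over both treatments of at least 20 TPM in each line, which does not favour genes high in fixed cells, 13 members were left, or 0.516% of the 2521. On that set, 3.01% of the genes were up by 1.6 times in HCT-116 and 6.7% in HepG2, and 4.72% and 5.59% were down by as much. Small nucleolar and Cajal body RNAs held 37 genes, of which 4 were up in HCT-116 and 0 in HepG2, while 16 and 22 were down. Of 7 immediate early genes, 0 were up, and 4 and 6 were down. None of 14 vacuolar ATPase genes met the limit in HCT-116, against 5 in HepG2.

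All 18 members had a higher median in fixed than in live cells of both lines, and live and fixed cells overlapped for all 18. Members were chosen on these values, so a higher median largely follows from the rule and is no separate evidence. Over the 2560 genes, the ratio of the medians was itself 1.23 in HCT-116 and 1.24 in HepG2 for the middle gene. The percentage of fixed cells above the live median ran from 58.7 to 92.4 in HCT-116, with a median of 77.2 over members, and from 68.3 to 95.1 in HepG2, with a median of 84.8. The interquartile ranges were apart for 5 members in HCT-116 and 7 in HepG2. The coefficient of variation was higher in fixed cells for 10 members in HCT-116 and 3 in HepG2. The counts of quartile ranges and of variation were not made over the 2560 genes, so they describe the members only.

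Ratios of the lines differed most for the 7SL genes and for PPARG, CAPNS1, TIMP1 and SNHG25. As log2 of the HepG2 over the HCT-116 ratio, the difference was -0.88 for RN7SL2 and -0.86 for RN7SL1. It was 0.81 for PPARG, 0.65 for CAPNS1, 0.54 for TIMP1 and 0.35 for SNHG25. These differences were not tested, and the same limit of 1.6 was passed by 3.36% of the 2560 genes for HCT-116 and 7.34% for HepG2.

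Correlations between members over the cells of a group were near 0 in the median. The median Pearson's r over all pairs of the 18 members for HCT-116 was -0.000283 (live) and 0.00565 (fixed), and for HepG2 0.0535 and 0.0417. The highest values in fixed cells were 0.43 for LOC100506675 with SNHG25 in HCT-116 and 0.46 for TRIM28 with CDK2AP1 in HepG2.

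In transcript structure the members were not uniform either. Median length was 1561 bases over members and 2003.5 over the 2514 genes with a reference transcript, and median GC content was 48.1% and 46.5%. For the coding members alone, median length was 1745.5 bases against 2029 over coding genes of this level, and GC content 46.4% against 46.5%. They ranged from TIMP1 at 769 bases to PRKDC at 13459 bases, and from DYNC1I2 at 37.5% GC to TRIM28 at 64.2%. The single-exon share was 11.1% over members, from the 7SL genes, and 2.27% over the 2514. For SNHG25 the reference transcript of this comparison is a longer one of 311 bases.

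**Figure D4:**
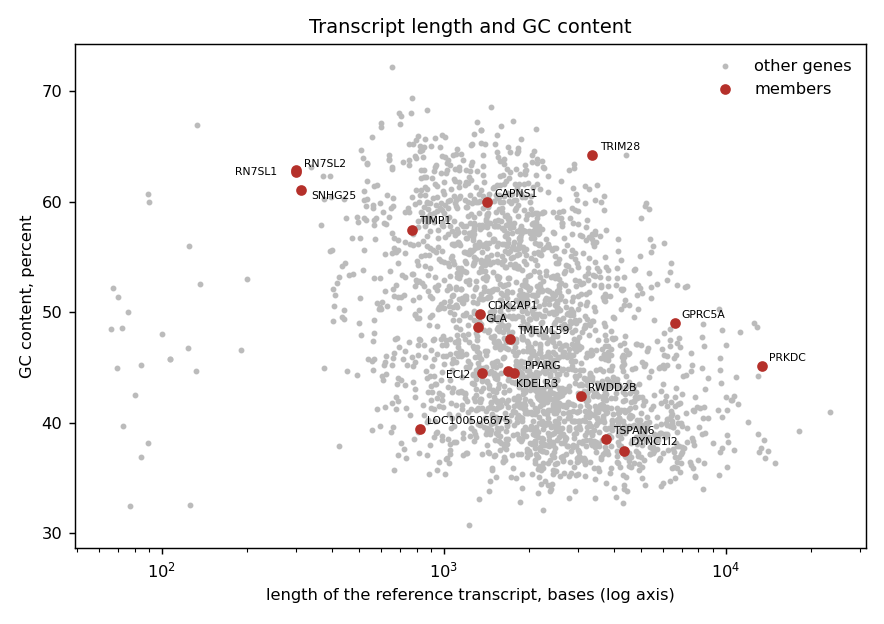
GC content in percent (y axis) against the length of the reference transcript in bases (x axis, log) for the members in red and the other genes with a fixed mean of at least 20 TPM in grey. The coding members spread over the cloud, from 769 to 13459 bases, and 3 noncoding members lie near 300 bases at over 60% GC.

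The ratios depend on how TPM is scaled. With ribosomal RNA left out and each cell rescaled to the sum it had, the 2560 genes had a median ratio of 0.997 (HCT-116) and 1.18 (HepG2), a log2 shift of -0.32 and -0.06. The median over members was then 1.37 in HCT-116 and 1.84 in HepG2, and 5 of 18 members stayed at or above 1.6 in both lines. These were RN7SL2, RN7SL1, LOC100506675, RWDD2B and TRIM28. With a median-ratio rescaling on broadly detected genes, 5 members stayed too, with SNHG25 in place of TRIM28. The 2560 genes then had a median ratio of 1.107 and 1.113. The limit of 1.6 was kept although the ratios of all genes moved. Divided by the median of the 2560 genes, the members' median was 1.375 and 1.553 as deposited. It was 1.375 and 1.553 with ribosomal RNA left out as above, and 1.416 and 1.501 with the median-ratio rescaling. RN7SL2, RN7SL1, LOC100506675 and RWDD2B stayed at or above 1.6 in both lines under all 12 alternatives, where for RN7SL2 the ratio of medians in HCT-116 is undefined because the live median is 0. At the other end, GPRC5A and TSPAN6 stayed under 3 of the 12, KDELR3 and GLA under 4, and PPARG under 5.

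**Figure D5:**
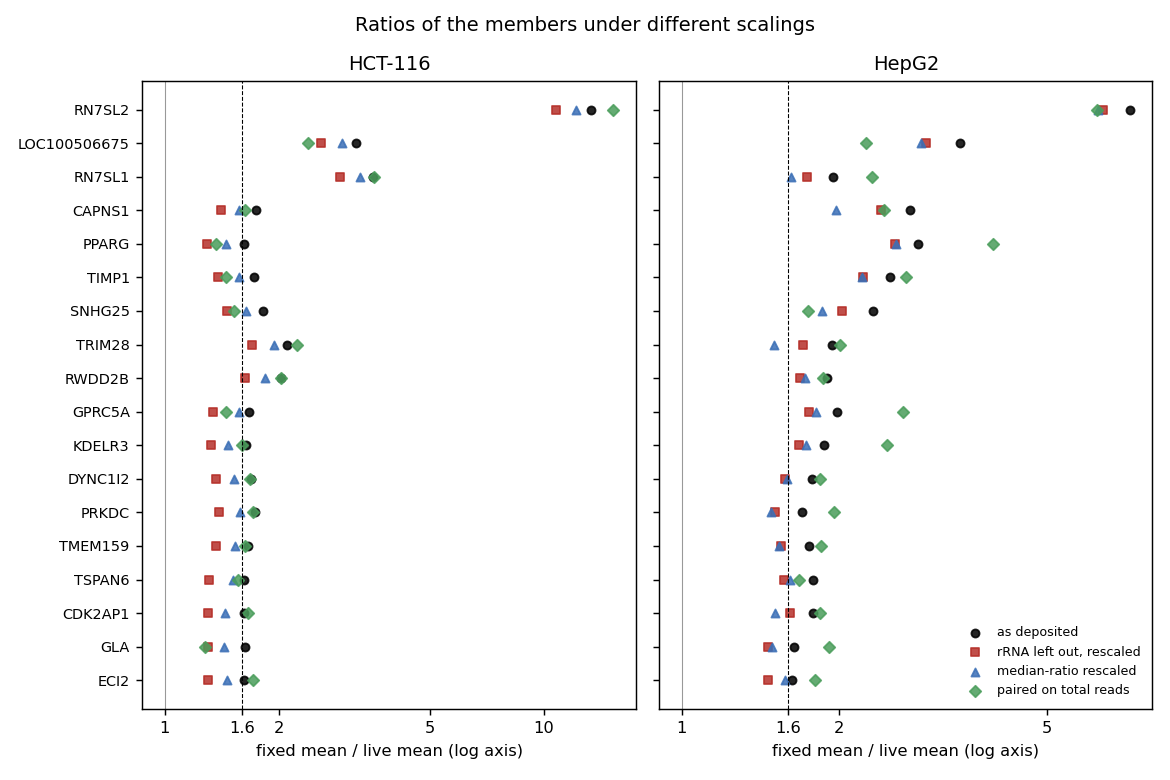
Ratio of the fixed to the live mean (x axis, log) of the 18 members in HCT-116 (left) and HepG2 (right), as deposited, with ribosomal RNA (rRNA) left out and cells rescaled to the full TPM scale, rescaled by the median ratio, and in cells paired on total reads; the dashed line marks 1.6. In HCT-116 most coding members fall below the line once ribosomal RNA is left out, while RN7SL2, RN7SL1 and LOC100506675 stay well above it.

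The limits cut through a continuous range. Just inside the ratio were PPARG, ECI2 and CDK2AP1, whose lower ratio was 1.62. Just outside were TTC1 with 1.595 and 1.75, DAZAP2 with 1.67 and 1.59, and SYF2 with 1.58 and 2.04. Of genes that met the ratio but not the level, the nearest were LOC105379039, NRBF2 and CDV3, with lowest fixed means of 19.5, 19.1 and 18.2 TPM. Without its highest fixed cell, a member's ratio fell below 1.6 for 7 members in HCT-116 and 2 in HepG2.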

How the data were processed

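Processed tables of single-cell Smart-seq2 libraries were used, and no reads. The authors quantified reads with kallisto (version 0.46.0 in the submitters' processing notes) on GRCh38, and deposited gene values as TPM, summed from transcripts with tximport. The deposited transcript tables are named TPM, but their values are CPM, not corrected for transcript length. The study's methods name Ensembl as the reference, while the tables list RefSeq transcripts. Of 346 labelled cells, 12 had no column. The 334 columns carry line and treatment but no cell number of the labels. A pair of HepG2 columns with equal values, 1 live and 1 fixed, was left out, which leaves 332.

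Means, SDs, medians and linear ratios of means over cells were computed with Python 3.11.15, pandas 2.3.3 and numpy 2.4.6, with no pseudocount unless stated. Total reads per cell, to 0.1 M (mega) reads, came from the step between CPM values, and ranged from 0.2 to 5.3 M. Intervals over cells would cover counting and cell spread only, so none are given. Gene type came from RefSeq (GRCh38.p14), and sequence, length, GC content and exons from GENCODE 44. The scripts were tested on simulated data with ratios well above 1.6 and without cells at 0 among the raised genes. That test does not show how genes near the limit are called. Members and gene lists were chosen with earlier results of these data known, so all values are descriptions. Named genes are the members with the largest ratios or highest levels, the noncoding members, those most unequal between lines and those nearest the limits. The remaining members and related genes were added to show the whole set. Alternatives changed the scaling, average, limits and cells used. Some items are not reported here.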

Additional observations from a re-analysis of the deposited data

How the results depend on the processing

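No paired analysis was possible because columns carry no replicate number of the labels and no test was made. Of the 18 members, 18 stayed at or above 1.6 in both lines with the equal columns kept, with 6 very similar fixed HepG2 columns left out, and in sums of the transcript table. The number was 13 with medians over cells and with cells paired on genes detected, and 12 with the mean of log2(TPM + 0.1). It was 11 with the mean of log2(TPM + 1), with cells paired on total reads (66 and 42 pairs) and without each gene's highest fixed cell. It was 5 under each of the 3 rescalings. The HCT-116 median of 1.71 moved to 1.37 and 1.38 with ribosomal RNA left out (rescaled to the old sum and to the full TPM scale). The HepG2 median of 1.92 moved to 1.69 with ribosomal RNA left out and the full TPM scale, 1.67 with median-ratio rescaling, 2.15 with log2(TPM + 0.1) and 2.57 in cells paired on genes detected. Genes meeting the rule numbered 18 as deposited, 197 at a ratio of 1.4, 2 at a ratio of 2, 76 at 5 TPM, 6 at 50 TPM, 952 with no minimum, 17 with the equal columns kept, 17 with the very similar columns left out, 5 under each rescaling, 35 with cells paired on total reads and 90 with cells paired on genes detected. Of 431 member ratios under the alternatives, 1 was below 1, that of GLA in HCT-116 with log2(TPM + 0.1), at 0.842. The rescaling to the full TPM scale, the pairing on genes detected and the removal of the highest cell were chosen after seeing the data. The cause of these changes was not tested.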
